A study of Mus musculus with 4 samples.

Results

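The 8 genes *Mkx*, *Lor*, *Tnnc1*, *Mycn*, *Camk2n2*, *Pcp4l1*, *Trhde* and *9030624G23Rik* were followed in mouse liver. They are a small set among the 22103 entries of the expression table. They were chosen by their own values in earlier results of these data. All but *9030624G23Rik*, for which no tissue is given here, are best known from a tissue other than liver. Most are low in liver, and their levels without Brg1 lay below, or nearly below, those with Brg1. The genotype difference of these genes is therefore a description of how they were selected and carries no test. Liver RNA was sequenced from 2 wild type (WT) mice and 2 Brg1LKO mice, in which a floxed *Smarca4*, the gene of the chromatin remodelling ATPase Brg1, is deleted by Cre recombinase under the albumin promoter. That promoter is active in hepatocytes, and the study describes the deletion as specific to them. Whether every other cell type of the liver kept the gene was not measured here. All 4 mice received alcohol, for 15 days by the labels, in the NIAAA procedure of a liquid ethanol diet with a final ethanol gavage. The study's methods give males of 8 weeks for its feeding experiments. Mice without alcohol and mice with Cre alone were not analysed here, so what the genotype does without alcohol cannot be read from these livers.

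Brg1 is the motor of the SWI/SNF complex, which moves and evicts nucleosomes and so opens promoters and enhancers to transcription factors. Genes of other lineages are usually silent or nearly silent in hepatocytes, and a level far under 1 FPKM in whole liver can come from faint transcription in many cells or from ordinary transcription in a few. FPKM counts reads per kilobase of transcript and per unit of mapped reads, so levels of different genes can be set beside each other. In whole liver, fewer cells of a type and less RNA per cell cannot be told apart.

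The tissue label was borne out by albumin, *Alb*, which ranged from 10710 to 12490 FPKM over the 4 livers. The targeted gene *Smarca4* was at 1.79 and 1.95 FPKM in WT and at 0.608 and 0.579 FPKM in the Brg1LKO livers, so that 31.8% of the WT mean was left. Steps in the low FPKM values put the depth at 80935500 and 79905700 reads for the WT libraries and 78177000 and 72599100 reads for the Brg1LKO libraries, and gave an estimate of the reads behind each gene. Whether such a read is a pair or a single end is unknown. In the limma fit over the 12346 genes whose mean reached 0.1 FPKM, the Benjamini-Hochberg adjusted p was under 0.05 for 0 genes, while 247 had an unadjusted p under 0.05 and 67 genes were lower at the study's threshold, an unadjusted p under 0.05 with a change of more than 2-fold. Each liver came from its own mouse, and with 2 mice against 2 the smallest two-sided permutation p is 0.333.

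Promoters are shown because the 8 genes were lower together and Brg1 acts on promoter chromatin. RefSeq sequences of build GRCm38.p6 were found for 6 of the 8 genes, and *Mkx* and *9030624G23Rik* are named only. Each run below holds the 100 bases before the RefSeq start site, read 5′ to 3′ on the strand of the gene. Capitals mark a match, on either strand, to TATAAA (one form of the TATA box), to the box CCAAT, to the GC box (its letters are GGGCGG) or to CACGTG (the E-box bound by MYC and MAX).
Lor, chr3:92083143-92083242, minus strand: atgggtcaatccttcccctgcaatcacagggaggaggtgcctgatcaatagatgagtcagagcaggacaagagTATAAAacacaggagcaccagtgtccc
Tnnc1, chr14:31208212-31208311, plus strand: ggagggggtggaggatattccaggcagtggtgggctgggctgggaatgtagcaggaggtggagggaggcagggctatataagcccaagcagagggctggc
Mycn, chr12:12941837-12941936, minus strand: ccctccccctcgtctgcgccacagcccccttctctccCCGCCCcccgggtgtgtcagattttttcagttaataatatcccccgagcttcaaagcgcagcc
Camk2n2, chr16:20621279-20621378, minus strand: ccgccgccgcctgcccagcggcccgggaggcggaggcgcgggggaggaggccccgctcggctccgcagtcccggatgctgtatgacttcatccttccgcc
Pcp4l1, chr1:171196269-171196368, minus strand: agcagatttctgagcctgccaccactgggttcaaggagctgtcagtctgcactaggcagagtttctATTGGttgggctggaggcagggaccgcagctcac
Trhde, chr10:114802303-114802402, minus strand: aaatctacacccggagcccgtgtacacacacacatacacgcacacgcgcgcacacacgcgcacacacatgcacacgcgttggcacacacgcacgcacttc

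These promoters varied in base content and in the motifs they held. The values below cover the full 300 bases of each RefSeq entry (250 before and 50 after the start). GC content ran from 47.7% in *Lor* to 79.0% in *Camk2n2*, beside a median of 52.7% over 32851 promoters. It was above that median in 5 of the 6, all but *Lor*. The ratio of observed to expected CpG was 0.04 in *Tnnc1* and 0.06 in *Lor*, but 0.86 in *Trhde* and 0.96 in *Camk2n2*, beside a median of 0.38. TATAAA occurred in 2 of the 6, in *Lor* at −27 and in *Pcp4l1* just past the RefSeq start, and in 13.6% of all promoters. Only these exact letters were sought, so the near form tatataa before the start of *Tnnc1* was not counted. GGGCGG occurred in *Mycn* and *Camk2n2*, 2 of the 6, and in 35.7% of all promoters. CCAAT occurred in *Pcp4l1* alone, and in 37.4% of all promoters. CACGTG occurred in 0 of the 6 and in 7.15% of all promoters. A match of letters is not a site in use. The RefSeq start was also the start of the measured transcript for *Lor*, *Tnnc1* and *Pcp4l1*, lay 9 bases from it in *Camk2n2* and 78 bases from it in *Mycn*, and lay 938 bases from it in *Trhde*.

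As a set, the 8 genes were low in the liver to begin with. The WT mean was under 1 FPKM for 7 of them and over it only for *Pcp4l1*, and the median of the 8 WT means was 0.582 FPKM, beside 1.70 FPKM over all tested genes. What remained in the Brg1LKO livers ran from 13.9% of the WT mean for *Mkx* to 35.0% for *Pcp4l1*, and in 6 of the 8 genes it was a smaller share than that of *Smarca4* itself. In 7 of the 8 genes both Brg1LKO livers lay below both WT livers, and *Pcp4l1* was the exception. Of the 7 genes that passed the filter at a mean of 0.1 FPKM, 6 had groups that did not overlap, an order found in 10.0% of all genes tested. All 7 were among the genes lower at the study's threshold, a rule that took in 0.543% of all genes tested. Both counts restate how the genes were selected. The Brg1LKO means of *Mkx*, *Lor*, *Mycn* and *9030624G23Rik* were under 0.1 FPKM, so these genes passed the filter only through their WT livers. The 67 genes lower at the threshold were 27 without WT replicate 2 and 316 without Brg1LKO replicate 2, and with a pseudocount of 1 in place of 0.1 the members past it were 1 of 7, *Pcp4l1*.

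**Figure D1:**
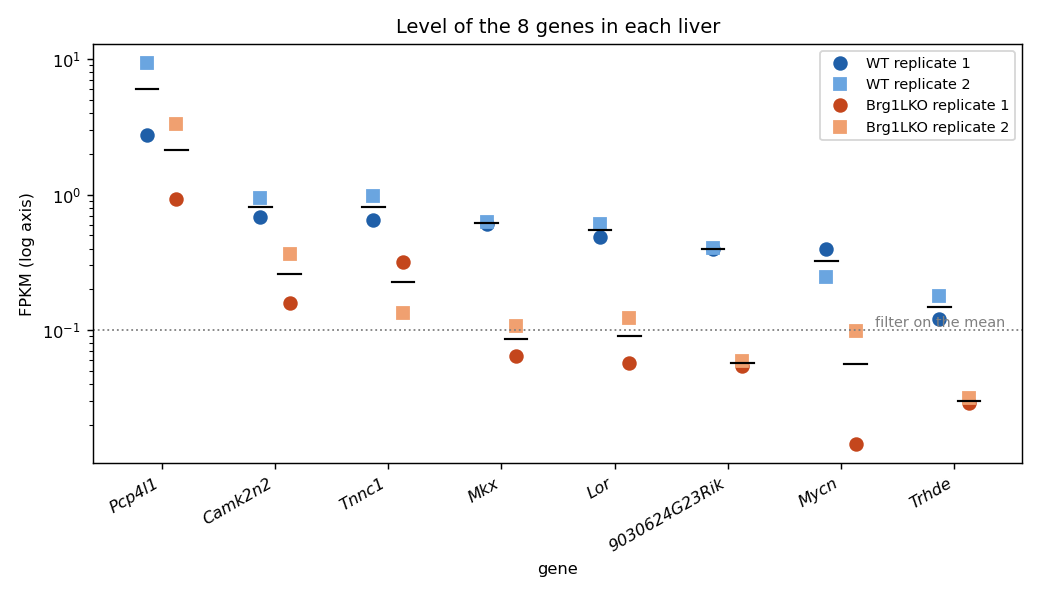
Level of each of the 8 genes in FPKM on a log axis, ordered by WT mean. Blue points are the 2 WT livers, orange points the 2 Brg1LKO livers, and black bars the group means. Only in *Pcp4l1* does a Brg1LKO liver (3.31 FPKM) lie above a WT liver (2.77 FPKM).

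The set holds a pair of DNA-binding factors, *Mkx* and *Mycn*. *Mkx* encodes Mohawk, a homeodomain factor known for its part in tendon formation (ENSMUST00000079788, chr18:6934518-7004780 on the minus strand, GRCm38, 7 exons). Its level was 0.606 and 0.629 FPKM in the WT livers and 0.0639 and 0.108 FPKM in the Brg1LKO livers. The WT livers were nearly equal, and the higher Brg1LKO liver was still 5.63-fold under the lower WT liver. The mean was 7.20-fold lower without Brg1 (0.618 ± 0.0166 FPKM against 0.0857 ± 0.0309 FPKM, SD, n = 2). *Mkx* had the fifth lowest difference of all genes tested, −1.96 on the log2(FPKM + 0.1) scale, which understates the change of low genes.

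*Mycn* encodes N-Myc, a basic helix-loop-helix factor of the MYC family that dimerizes with MAX and is best known from the developing nervous system and from neuroblastoma (ENSMUST00000043396, chr12:12936093-12941914 on the minus strand, 3 exons). Its level was 0.398 and 0.248 FPKM in the WT livers and 0.0144 and 0.0980 FPKM in the Brg1LKO livers. An estimated 86 and 53 reads lay behind the WT values, and 3 and 19 reads behind those without Brg1. The exact 95% Poisson interval was 0.619 to 8.77 reads for the lower Brg1LKO liver and 11.4 to 29.7 reads for the other, so these livers differed from each other by more than counting error. The groups did not overlap, the mean was 5.75-fold lower without Brg1 (0.323 ± 0.106 FPKM against 0.0562 ± 0.0591 FPKM, SD, n = 2), and *Mycn* was the only one of the 8 to peak in WT replicate 1.

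The other MYC genes showed no such gap between genotypes. *Myc* had 0.626 and 0.607 FPKM in WT and 0.541 and 0.692 FPKM in the Brg1LKO livers, and the ranges overlapped (log2 difference −0.01, SE 0.35, adjusted p = 1 by limma). *Mycl* had 0.346, 0.640, 0.457 and 0.177 FPKM in the same order, again with overlap (log2 difference −0.55, SE 0.42, adjusted p = 1 by limma). *Mycs*, a gene akin to *Mycn* whose transcript aligned to it with 70.7% identity, was listed at 0 in all 4 livers. The WT means were 0.323 FPKM for *Mycn*, 0.493 FPKM for *Mycl* and 0.616 FPKM for *Myc*. Of the 12 tested genes of the MYC and MAX network, to which *Mycn* belongs and among which it was not counted, 0 passed the threshold in either direction. Over all genes tested, 0.543% were lower and 0.437% higher at the threshold, so a list this short would usually hold 0. The median log2 difference of the 12 genes was −0.08, beside −0.02 over all tested genes. *Max*, the partner of N-Myc, had means of 6.40 and 6.47 FPKM.

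Another pair encodes structural or contractile proteins. *Lor* encodes loricrin, the main protein of the cornified envelope that seals the outer epidermis (ENSMUST00000058150, chr3:92080271-92083142 on the minus strand, 2 exons). Its level was 0.486 and 0.605 FPKM in the WT livers and 0.0575 and 0.124 FPKM in the Brg1LKO livers. Both Brg1LKO livers were well under both WT livers, and the lower WT liver was 3.92-fold above the higher Brg1LKO liver. The mean went from 0.546 ± 0.0840 FPKM in WT to 0.0907 ± 0.0469 FPKM in Brg1LKO (SD, n = 2), which left 16.6%. An estimated 70 and 86 reads lay behind the WT values and 8 and 16 reads behind the Brg1LKO values.

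*Tnnc1* encodes troponin C of slow skeletal and cardiac muscle, the calcium sensor of the thin filament (ENSMUST00000169169, chr14:31208312-31211729 on the plus strand, 6 exons). Its level was 0.651 and 0.972 FPKM in the WT livers and 0.319 and 0.134 FPKM in the Brg1LKO livers. It was the only one of the 8 that was lowest in Brg1LKO replicate 2, and the groups were separated by 2.04-fold at their nearest points. The mean was 3.58-fold lower without Brg1 (0.812 ± 0.227 FPKM against 0.227 ± 0.131 FPKM, SD, n = 2). These are small numbers of reads, an estimated 38 and 56 with Brg1 and 18 and 7 without it.

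Other genes of skin and of striated muscle were largely silent in these livers. Among 20 genes of the cornified envelope and of keratinocytes, 8 were listed at 0 in every liver, *Krt1* and *Flg2* among them, and 4 were high enough to test. None of these 4 passed the threshold, which took in only 0.543% (lower) and 0.437% (higher) of all genes tested. *Tgm1*, the transglutaminase that cross-links loricrin, had a mean of 11.2 ± 2.12 FPKM in the WT livers and of 7.25 ± 3.06 FPKM in the Brg1LKO livers (SD, n = 2), a log2 difference of −0.68 (SE 0.37, adjusted p = 1 by limma). Among 20 genes of slow and cardiac muscle, *Myh6*, *Myh7* and *Myl2*, which define that muscle, were listed at 0 in every liver. *Tnni1*, a troponin subunit that works with *Tnnc1*, had at most 3 reads. Another troponin subunit, *Tnnt1*, had 0.583 and 0.331 FPKM in WT and 0.435 and 1.275 FPKM in Brg1LKO (log2 difference 0.66, SE 0.45). The 4 tested genes of this list had a median log2 difference of 0.54, of opposite sign to *Tnnc1*, and none passed the threshold. *Atp2a2*, the calcium pump of slow muscle that is also common outside muscle, carried most of that list's summed FPKM. The fast-muscle counterpart of *Tnnc1*, *Tnnc2*, had 0 and 2 reads in WT and 0 and 1 in Brg1LKO. *Tnnc1* aligned to *Tnnc2* with 71.7% identity over 434 bases.

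*Camk2n2* and *Pcp4l1* belong to calmodulin signalling. *Camk2n2* encodes an inhibitor of calcium/calmodulin-dependent kinase II that is abundant in brain (ENSMUST00000052939, chr16:20619215-20621287 on the minus strand, 2 exons). Its level was 0.689 and 0.940 FPKM in the WT livers and 0.159 and 0.363 FPKM in the Brg1LKO livers. Both Brg1LKO livers lay under both WT livers, by 1.90-fold at the nearest points, and the mean was 3.13-fold lower (0.815 ± 0.178 FPKM against 0.261 ± 0.144 FPKM, SD, n = 2). Its paralog *Camk2n1* was the higher of the pair in liver, with 3.04 and 5.74 FPKM in WT and 2.38 and 4.57 FPKM in Brg1LKO. The groups of *Camk2n1* overlapped, and its log2 difference was −0.33 (SE 0.41, adjusted p = 1 by limma). The test of *Camk2n2* against its paralog was not made, since *Camk2n2* was selected on this contrast.

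*Pcp4l1* encodes a small protein with an IQ motif, akin to the calmodulin-binding Purkinje cell protein of *Pcp4* (ENSMUST00000111332, chr1:171173262-171196268 on the minus strand, 3 exons). It was the highest of the 8, and its replicates lay far apart in both genotypes. Its level was 2.77 and 9.34 FPKM in the WT livers and 0.925 and 3.31 FPKM in the Brg1LKO livers. The groups overlapped, since the higher Brg1LKO liver exceeded the lower WT liver. Replicate 2 was 3.37-fold above replicate 1 in WT and 3.58-fold above it in Brg1LKO, a spread within each genotype larger than the 2.86-fold difference between the means (6.06 ± 4.64 FPKM against 2.12 ± 1.69 FPKM, SD, n = 2). With 114 to 1177 estimated reads a liver, counting error was small beside that spread. After rescaling by median ratios, WT replicate 1 stood at 3.04 and Brg1LKO replicate 2 at 2.98, so that the groups no longer overlapped. Its log2 difference of −1.48 became −0.62 without WT replicate 2 and −0.61 without Brg1LKO replicate 1. Its paralog *Pcp4* had 1 read in each WT liver and 3 and 2 reads in the Brg1LKO livers.

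Of 15 further genes of the CaMKII and calmodulin-binding list, 10 were tested and 0 passed the threshold in either direction, with a median log2 difference of −0.11. The threshold took in 0.543% (lower) and 0.437% (higher) of all genes tested. The most abundant gene of the list, the calmodulin gene *Calm2*, was at 42.1 ± 0.461 FPKM in the WT livers and 38.9 ± 3.62 FPKM in the Brg1LKO livers (SD, n = 2). Of 17 neuronal genes, 7 were listed at 0 in every liver, *Snap25*, *Stmn2* and *Th* among them. The summed FPKM of the neuronal list was 1.01 and 1.27 with Brg1 and 0.924 and 0.979 without it. Beside these sums *Camk2n2* alone had up to 0.940 FPKM. Most of each sum was *Syt1*, with 0.743 and 0.774 FPKM in WT and 0.528 and 0.657 FPKM in Brg1LKO. Of the 2 tested neuronal genes, *Syt1* had a log2 difference of −0.32 and *Eno2* of 0.24.

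*Trhde* encodes the TRH-degrading ectoenzyme, a membrane aminopeptidase that inactivates thyrotropin-releasing hormone (ENSMUST00000061632, chr10:114398823-114801364 on the minus strand, 19 exons). Its level was 0.121 and 0.177 FPKM in the WT livers and 0.0291 and 0.0313 FPKM in the Brg1LKO livers. The Brg1LKO livers were nearly equal, with an estimated 13 reads each, against 56 and 81 reads in the WT livers. The mean was 4.94-fold lower without Brg1 (0.149 ± 0.0398 FPKM against 0.0302 ± 0.00158 FPKM, SD, n = 2). *Trhde* had a mean of 0.0897 FPKM over the 4 livers and so was the only one of the 8 that did not enter the fit.

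The hormone and its receptors were not detected. *Trh*, the peptide that *Trhde* cleaves, its receptor genes *Trhr* and *Trhr2*, and *Tshb* and *Tshr* were listed at 0 in all 4 livers. The list of the axis and of the M1 aminopeptidases, the enzyme family of *Trhde*, had 13 tested genes, of which 0 passed the threshold. Over all genes tested, 0.543% were lower and 0.437% higher at it. *Anpep*, an aminopeptidase of the same family, had 20.2 ± 4.61 FPKM in the WT livers and 16.5 ± 4.53 FPKM in the Brg1LKO livers (SD, n = 2), and *Enpep* had 9.91 ± 2.37 and 15.6 ± 4.44 FPKM. *Trhde* was far below both on the FPKM scale.

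*9030624G23Rik* is annotated as protein-coding and is known by its clone name (ENSMUST00000101538, chr12:24043202-24097246 on the minus strand, 4 exons). Its level was 0.396 and 0.401 FPKM in the WT livers and 0.0547 and 0.0589 FPKM in the Brg1LKO livers. Within each genotype the livers were nearly equal, and the mean was 7.02-fold lower without Brg1 (0.399 ± 0.00361 FPKM against 0.0568 ± 0.00297 FPKM, SD, n = 2). The values were in the ratio of 15, 15, 2 and 2 whole reads or a multiple of them. If those are the reads, the ratio of WT to Brg1LKO reads per depth was 7.03. Its exact 95% binomial interval, for counting error only, was 2.48 to 27.5. Its transcript aligned to 323 other genes over at least 100 bases, 23 of them with at least 95% identity, so reads of this gene family may be split between copies and the level of *9030624G23Rik* is uncertain. *Gm5784*, which matched it with 93.3% identity over 1667 bases, had 1 and 2 reads in WT and 0 and 1 in Brg1LKO.

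**Figure D2:**
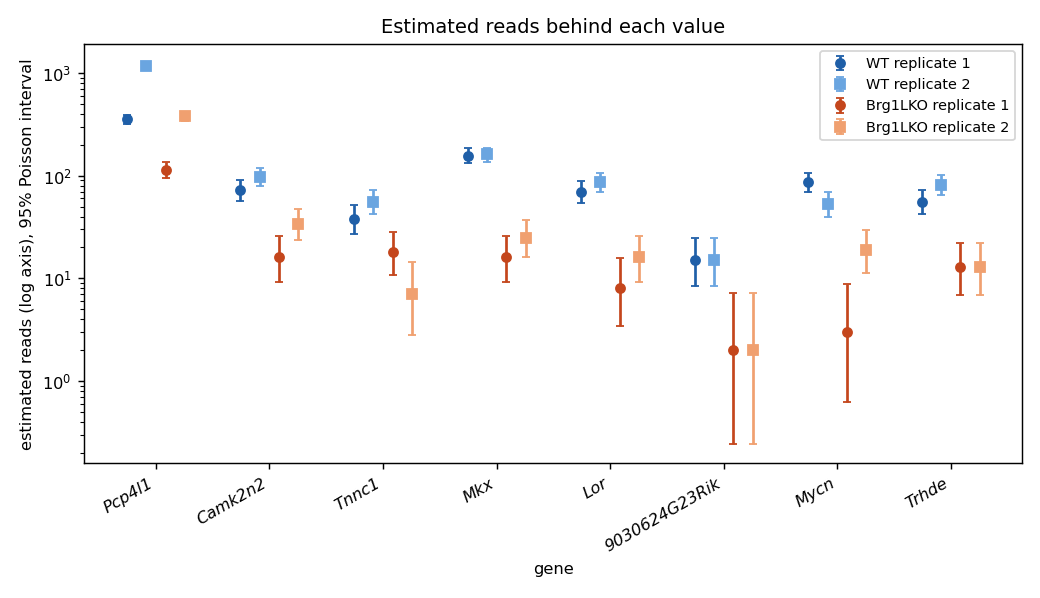
Estimated reads behind each value on a log axis, with exact 95% Poisson intervals, for the same genes and colours. The intervals of the Brg1LKO livers lie under those of the WT livers in every gene but *Tnnc1* and *Pcp4l1*, and the Brg1LKO livers of *Mycn* (3 and 19 reads) do not overlap each other.

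Counting error alone left wide margins for the lowest members. The ratio of WT to Brg1LKO reads per depth was 5.92 for *Mycn* with an exact 95% binomial interval of 3.76 to 9.76, and 3.52 for *Tnnc1* with an interval of 2.25 to 5.72. It was narrowest for *Pcp4l1*, 2.91 with an interval of 2.63 to 3.23, the gene with the most reads. The intervals pool the reads of the livers of each genotype, cover counting error only and take reads as independent. They leave out the spread between mice, which for *Pcp4l1* was 3.37-fold in WT and 3.58-fold in Brg1LKO. They are no test of the genotype difference, on which the genes were selected. The reads of *Mkx* and *9030624G23Rik* came out whole only at another transcript length than the annotated one, so they are less certain than the others.

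Overlap with other genes could add reads to a few members. *Trhde* and *Camk2n2* each overlap an annotated gene on the opposite strand (*4930473D10Rik* and *Gm49333*), neither of which is in the table, and *Mkx* overlaps *AC148004.2* on its own strand. The study's methods name a stranded kit and the labels a BGIseq protocol, so it is not settled whether strand was used. *Tnnc1* overlaps the annotated gene *Nisch* on the opposite strand, although the *Nisch* transcript that the table measures ends 1.51 kb away from *Tnnc1*. *Nisch* was at 20.3 to 26.5 FPKM, far above *Tnnc1*, and its log2 difference was 0.12 (SE 0.33, adjusted p = 1 by limma). Its mean was 21.4 FPKM in WT and 23.4 FPKM in Brg1LKO, while *Tnnc1* was lower.

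Before rescaling, the members leaned the same way within genotypes. They were lowest in Brg1LKO replicate 1 in 7 of the 8 genes and highest in WT replicate 2 in 7 of the 8. The same livers were lowest in 46.6% and highest in 42.1% of all tested genes. These shares are not a like comparison. In genes selected for lower values without Brg1, the lowest liver is nearly bound to be a Brg1LKO liver and the highest a WT liver. After rescaling by median ratios the counts were 5 and 5 of the 8, and both Brg1LKO livers lay below both WT livers in all 8 genes. The library scale moved the median of all tested genes little, from −0.02 to 0.01 on the log2 scale.

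**Figure D3:**
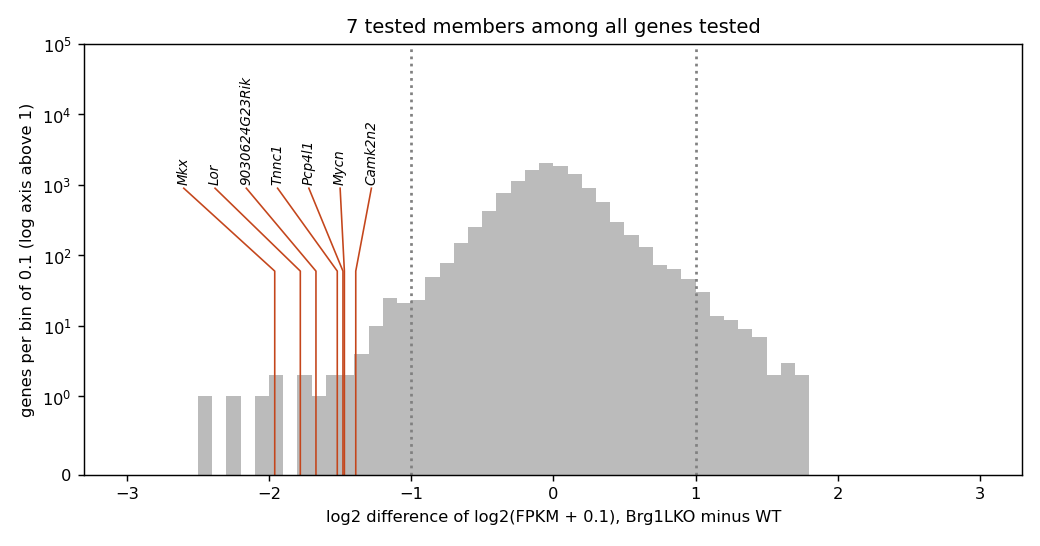
Number of tested genes in each bin of 0.1 of the log2 difference (Brg1LKO minus WT, log2(FPKM + 0.1) scale), with the 7 tested members drawn as lines. The members lie from −1.96 to −1.39, left of the dotted line at −1, in a tail that few of the 12346 genes reach.

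In the order of all differences, the 7 tested members held places between 5 and 14 from the lowest, which restates how they were selected. Their median log2 difference was −1.52, beside −0.02 over all genes tested. They made up 10.4% of the 67 genes lower at the threshold. Low level was common among those 67, of which 32 (47.8%) had a WT mean under 1 FPKM, compared with 37.2% of all tested genes. The 32 include every tested member but *Pcp4l1*, so part of this excess restates the selection. Higher at the threshold were 54 genes (0.437%), and no member was among them.

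The gene lists covered the lineages and pathways of the members and also other cell types of the liver or of nearby tissue. The list genes past the threshold came only from the adipose list and the Kupffer cell and macrophage list. Over 15 lists with 223 genes, 221 were in the table (3 under an older symbol) and 119 were tested. Lower at the threshold was 1 of these 119, *Adrb3*, the adrenergic receptor of fat, and higher were 3, the macrophage genes *Cd5l*, *Cd68* and *Vsig4*. These are 0.84% and 2.52% of the genes tested in the lists, against 0.543% and 0.437% over all genes. Their median log2 difference was −0.01, and with a liver left out the 4 calls became 1 to 16, the most without Brg1LKO replicate 1. *Mkx* was lower while the 7 tested tendon genes had a median of 0.15, *Dcn* among them with a mean of 15.9 FPKM in both groups, and the tendon genes *Tnmd* and *Kera* were listed at 0.

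**Figure D4:**
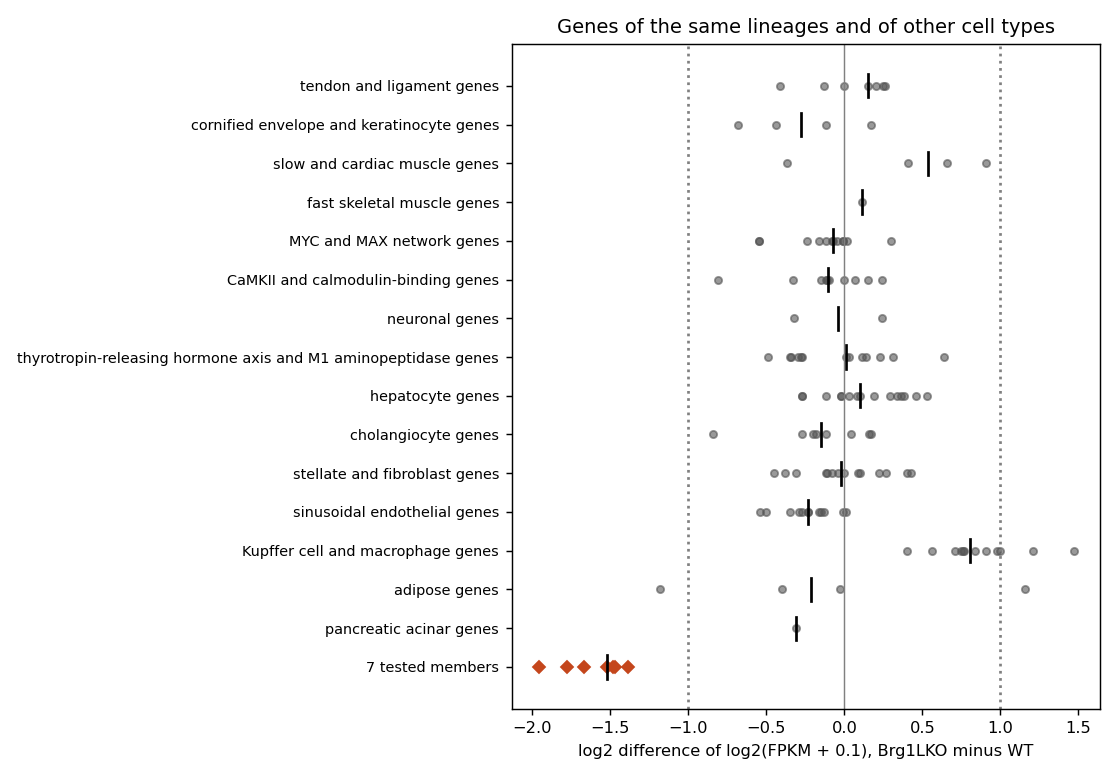
Log2 difference (Brg1LKO minus WT, log2(FPKM + 0.1) scale) of each tested gene in 15 lists, 1 line for each list, with the median as a black bar. The diamonds at the bottom are the 7 tested members, from −1.96 to −1.39, while only *Adrb3* (−1.18) among 119 list genes passes the threshold on the lower side.

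Marker lists of liver cell types did not all have one sign. All 12 genes of the Kupffer cell and macrophage list had a log2 difference above 0 (0.40 to 1.47), 3 of them past the threshold, and their summed FPKM was 58.8 and 65.8 in WT, against 77.2 and 159 in Brg1LKO. The Brg1LKO liver with the higher sum, replicate 2, had the higher FPKM of 7 of the 8 members, all but *Tnnc1*. After rescaling by median ratios this held for 5 of the 8. Its median-ratio size factor was also the higher, 1.11 against 0.884 for replicate 1, and the share over all tested genes was not counted. For *Trhde* and *9030624G23Rik* the estimated reads of both Brg1LKO livers were equal. Of 12 sinusoidal endothelial genes 11 had a log2 difference below 0, none of them past the threshold (median −0.23, sums of 41.2 and 43.1 against 30.7 and 44.3 FPKM). The 14 stellate and fibroblast genes had a median of −0.02, the 8 tested cholangiocyte genes −0.15, and the 15 hepatocyte genes 0.10. The part of these cell types in the levels of the 8 genes was not tested. The 4 tested adipose genes had a median of −0.21, with *Cidec* at 43.8 FPKM in Brg1LKO replicate 1 and at most 5.01 FPKM in the other livers, and *Lep* and *Retn* at 0. The 1 tested fast muscle gene, *Acta1*, had a log2 difference of 0.11, and the 1 tested pancreatic acinar gene, *Cela1*, of −0.31.

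The 8 genes lie on 7 chromosomes, with *Mycn* and *9030624G23Rik* both on chromosome 12. The nearest expressed gene on each side, 16 in all and 1.51 to 2630 kb away by the transcripts in the table, included 0 genes past the threshold and 0 with an unadjusted p under 0.05 (limma). Over all 12346 genes tested, 0.543% were lower and 0.437% higher at the threshold, and 247 had such a p. Of the 16 neighbours 5 had a log2 difference below 0 and 11 above 0, with a median of 0.12. Without WT replicate 1 or without Brg1LKO replicate 2, 2 of the 16 passed the threshold. Next to *Mkx*, *Rab18* had a log2 difference of 0.59 and *Mpp7* of 0.54. Next to *Mycn*, *Ddx1* had 0.06, and next to *Camk2n2*, *Alg3* had 0.17 and *Psmd2* −0.16.

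**Figure D5:**
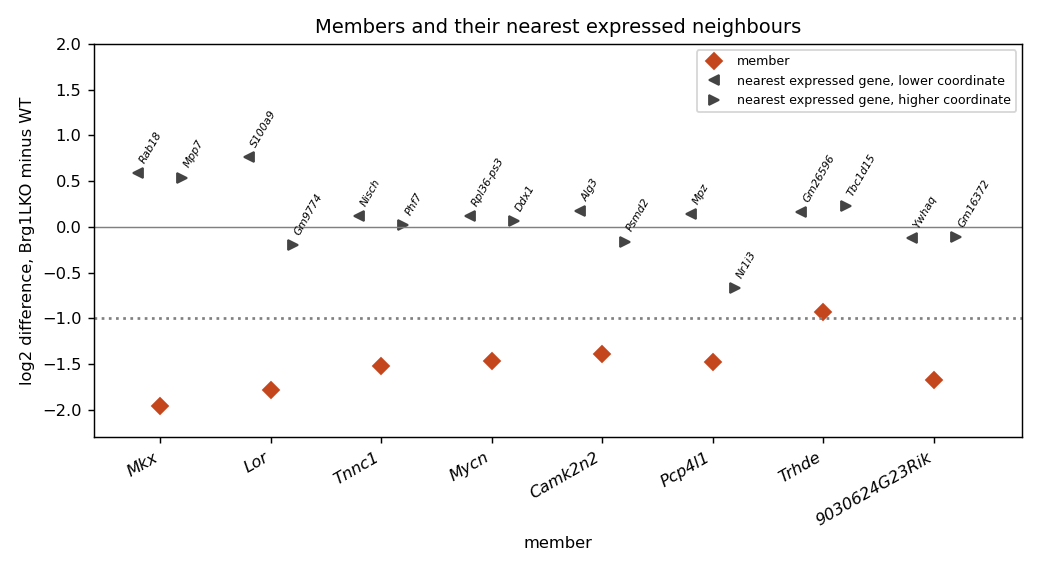
Log2 difference (Brg1LKO minus WT, log2(FPKM + 0.1) scale) of each member (diamonds) and of its nearest expressed gene at lower and at higher coordinates (triangles). The 16 neighbours lie between −0.67 (*Nr1i3*) and 0.76 (*S100a9*), all above their member.

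The lowest neighbour belonged to *Pcp4l1*. *Nr1i3*, which encodes the xenobiotic receptor CAR, lies 17.7 kb from it on the opposite strand. It was at 16.0 and 37.3 FPKM in WT and 9.38 and 25.02 FPKM in Brg1LKO (log2 difference −0.67, SE 0.48, adjusted p = 1 by limma). Like *Pcp4l1*, it was higher in replicate 2 of each genotype, by 2.34-fold in WT and 2.67-fold in Brg1LKO.

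By pattern over the 4 livers, the genes most like the 8 included the deleted gene *Smarca4*. Likeness was the Euclidean distance between a gene's centred log2(FPKM + 0.1) values and the mean centred profile of the members, which was 0.59 and 0.93 for WT and −0.98 and −0.55 for Brg1LKO. Of 12339 other genes, the 5 nearest were *Aurka* (distance 0.31), *Pfn2* (0.32), *Trim47* (0.36), *Nck2* (0.38) and *Smarca4* (0.38), beside a median distance of 1.56. *Aurka*, a mitotic kinase, was at 0.928 and 1.41 FPKM in WT and 0.336 and 0.521 FPKM in the Brg1LKO livers. The profile was built on genes selected for their genotype difference. Of the members, *Lor* (0.26) and *Camk2n2* (0.32) lay nearest to their common profile and *Pcp4l1* (1.34) farthest from it.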

How the data were processed

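The authors deposited 1 table of FPKM for 2 WT and 2 Brg1LKO livers, per gene under an Ensembl transcript identifier. According to the study's methods, reads were trimmed with Trimmomatic, mapped to GRCm38 with HISAT2 and turned into FPKM with Cufflinks; the submitters' processing notes name HISAT2 2.0.4 and StringTie 2.1.4. No normalization between libraries is stated. The groups came from the sample labels.

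Each gene was tested on log2(FPKM + 0.1) by limma 3.58.1 in R 4.3.3 (eBayes with trend) over 12346 genes whose mean reached 0.1 FPKM, with genotype as the only term. The threshold was the study's, an unadjusted p under 0.05 and more than 2-fold, with Benjamini-Hochberg adjustment over all genes tested. The members and the gene lists were chosen with earlier results of these data known, so the members' genotype difference is given with no test. The text names the members, *Smarca4*, paralogs, list genes past the threshold and up to 3 further genes per list with the highest mean, the nearest expressed gene on each side, and the 5 non-members nearest in pattern. List genes named as listed at 0, *Tnni1*, *Tnnt1*, *Mycs* and *Gm5784* were chosen after their values were seen.

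Transcript lengths and positions came from GENCODE M21 (98.3% of entries matched), and 27 symbols that the table holds as dates were put back. Library totals were found from low values (up to 20 reads, transcripts of at least 2000 bases), of which 88.4% to 89.5% lay within 0.1 of a whole read. Depth therefore limits the members to few reads in many livers. Transcripts were aligned with BLAST 2.17.0 (at least 100 aligned bases). Other steps used Python 3.11.15, pandas 2.3.3, SciPy 1.17.1 and matplotlib 3.10.9. The fit was tested on simulated data. Alternatives were pseudocounts of 1 and 0.01, no filter, a filter at 1 FPKM, median-ratio rescaling, a replicate block and each liver left out.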

Additional observations from a re-analysis of the deposited data

How the results depend on the processing

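All 8 members kept a negative difference under the 56 combinations of member and alternative that were run (39 moved by less than 1 SD, 17 by more, 0 reversed). The members were selected for lower values without Brg1, so the kept sign restates that selection and is no sign of robustness. The scale decided the size: with a pseudocount of 1 the log2 difference was −0.58 for *Mkx*, −0.16 for *Trhde* and −1.12 for *Pcp4l1*, and 1 of 7 tested members stayed past the threshold (*Pcp4l1*), while with 0.01 it was −2.75 for *Mkx*. The log2 difference of *Pcp4l1* was −0.62 without WT replicate 2 and −0.61 without Brg1LKO replicate 1, and it was not past the threshold after median-ratio rescaling, with no filter, or without either of these livers. *Camk2n2* was not past it without WT replicate 2 (−1.19) or without Brg1LKO replicate 1 (−0.97), and *Trhde* was not past it in the 3 settings in which it entered the fit (no filter, and without either Brg1LKO liver).

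Counts over all genes moved more. The 67 lower genes became 6 with a pseudocount of 1, 30 with a filter at 1 FPKM, and 27 (without WT replicate 2) to 316 (without Brg1LKO replicate 2) with a liver left out; without WT replicate 1 and Brg1LKO replicate 1 they were 146 and 150. The 54 higher genes became 12 with a pseudocount of 1, 27 with no filter, and 46 to 407 with a liver left out, the highest without Brg1LKO replicate 1. The share of lower calls was 55.4%, but 33.3% with a pseudocount of 1, 66.2% with no filter and 44.1% with a filter at 1 FPKM. The 4 list genes past the threshold became 2 with a pseudocount of 1, 1 with no filter, and 1 to 16 with a liver left out. The flanking genes past the threshold were 0 to 2 with a liver left out, 2 without WT replicate 1 or Brg1LKO replicate 2. The lone liver left in a group was then assumed to vary like the others. The cause was not tested.

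Replicate numbers are shared by the groups. Across genes, the deviations of same-numbered livers were hardly correlated (0.0307), a measure that does not see a shift common to all genes. The median-ratio size factors were 0.912 and 0.884 for replicate 1 of WT and Brg1LKO, and 1.13 and 1.11 for replicate 2. Same-numbered livers thus had a similar library scale, and whether they share more than that was not tested. With the replicate block there were 59 lower genes, 49 higher genes, 4 list genes and 0 flanking genes past the threshold. Genes with an adjusted p under 0.05 (limma) were 0 except with the filter at 1 FPKM (2), without Brg1LKO replicate 1 (271) and without Brg1LKO replicate 2 (139). Depth limits every member but *Pcp4l1*.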
